A study of Mus musculus with 12 samples.

Results

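Genes of cholesterol synthesis, of its control by SREBP and LXR transcription factors, and of the linked fatty acid synthesis were followed through 3 stages of early mouse T cell development. The group was a named list of 33 genes, taken by function, and chosen with earlier results of these data known. A probe set that carried 1 gene symbol was found for 31 of them, out of 18193 genes with such a probe set on the array. Acat2, a thiolase at the head of the mevalonate route, and Nr1h2, which encodes LXR-beta, had none and have no values below. All 31 measured genes passed a filter on dim signals that 11241 genes passed in all.

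Thymocytes that carry neither CD4 nor CD8 are called double negative (DN), and pass through stages told apart by the surface proteins CD44 and CD25. The samples were CD44+CD25+ cells (DN2), CD44-CD25+ cells (DN3) and CD44-CD25- cells (DN4), the last 2 stages lying either side of the checkpoint at which a rearranged T cell receptor beta chain is tested. The donors were C57BL/6 females of 5 to 6 weeks, for which the labels name no engineered allele or treatment in any group. CD4+ and CD8+ cells were removed on magnetic columns, and the sorter gated out cells stained for the gamma-delta receptor, NK1.1, CD3, CD4 or CD8. Each of 4 sorts pooled 4 mice (16 in all) and gave 1 array of every stage, so 12 arrays were measured, 4 per stage, and arrays of a sort share their mice. A sample is a pool of cells, so fewer cells of a type and less RNA per cell cannot be told apart in any value below.

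Cells build cholesterol from acetyl-CoA: the mevalonate steps make isoprenoid units, these are joined to squalene, and squalene is closed to lanosterol and trimmed to cholesterol. When membrane sterol is low, the escort protein SCAP carries SREBP from the endoplasmic reticulum to the Golgi, where it is cut to release a transcription factor for the genes of this route. INSIG proteins hold SCAP back when sterol is plentiful, and LXR receptors, which bind oxidised sterols, turn on export pumps such as ABCA1. Lymphocytes that enter division are known to need new membrane lipid.

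RefSeq promoter entries (mouse build GRCm38.p6) were matched for 26 of the 33 genes, and the 250 bases before each start site were searched on both strands for 4 motifs. The CCAAT box (CCAAT, or ATTGG on the other strand) is bound by NF-Y, a known partner of SREBP. It was in 20 of the 26 promoters (76.9%), against 37.5% of 27025 promoters of all genes. The GC box (GGGCGG or CCGCCC), bound by Sp1, was in 21 of 26 (80.8%), against 35.4% of all genes. The E-box (CACGTG, its own reverse) was in 6 of 26 (23.1%), against 6.86%. The classical sterol regulatory element, written TCACNCCAC or GTGGNGTGA, was in 1 of 26 (3.85%), that of Hmgcs1, against 1.22%. With at most 1 letter different, a search added after the data were seen, it was in 11 of 26 (42.3%), against 23% of all genes. Motifs were counted also where they overlapped each other. A match is a description of letters and not a bound site, and all promoters were taken without matching for GC content.

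Of the promoters, 5 are printed to show the CCAAT box in genes of different roles and a promoter without it. The sequence of Hmgcs1 (chr13:119690101-119690350, plus strand) holds the sterol regulatory element, Msmo1 (chr8:64733579-64733828, minus strand), Insig1 (chr5:28071162-28071411, plus strand) and Fasn (chr11:120824548-120824797, minus strand) are genes whose signals were higher in DN4 than in DN2 cells, and Abca1 (chr4:53159896-53160145, minus strand) is the exporter whose signal was lower. Each runs 5′ to 3′ on the gene's strand up to the base before the start site, with CCAAT boxes of either strand and the sterol regulatory element in capitals.
Hmgcs1: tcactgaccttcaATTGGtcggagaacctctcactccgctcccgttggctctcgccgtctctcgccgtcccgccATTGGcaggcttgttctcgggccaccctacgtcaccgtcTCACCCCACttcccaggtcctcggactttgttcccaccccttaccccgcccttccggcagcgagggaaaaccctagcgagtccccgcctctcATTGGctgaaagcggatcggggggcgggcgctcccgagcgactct
Msmo1: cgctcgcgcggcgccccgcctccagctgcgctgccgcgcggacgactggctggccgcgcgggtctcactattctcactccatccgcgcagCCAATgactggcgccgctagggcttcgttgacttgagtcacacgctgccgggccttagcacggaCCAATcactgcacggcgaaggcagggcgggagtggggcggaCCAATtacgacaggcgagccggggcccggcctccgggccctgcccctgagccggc
Insig1: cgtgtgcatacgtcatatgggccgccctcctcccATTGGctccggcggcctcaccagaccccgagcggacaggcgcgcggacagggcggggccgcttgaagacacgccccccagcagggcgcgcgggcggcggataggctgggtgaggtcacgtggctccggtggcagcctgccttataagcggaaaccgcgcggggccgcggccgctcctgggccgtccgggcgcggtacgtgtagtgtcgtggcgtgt
Fasn: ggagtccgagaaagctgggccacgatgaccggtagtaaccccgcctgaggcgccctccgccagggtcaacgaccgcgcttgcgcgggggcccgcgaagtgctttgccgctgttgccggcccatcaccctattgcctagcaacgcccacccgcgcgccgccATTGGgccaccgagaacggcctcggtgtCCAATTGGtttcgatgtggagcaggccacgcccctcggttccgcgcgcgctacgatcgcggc
Abca1: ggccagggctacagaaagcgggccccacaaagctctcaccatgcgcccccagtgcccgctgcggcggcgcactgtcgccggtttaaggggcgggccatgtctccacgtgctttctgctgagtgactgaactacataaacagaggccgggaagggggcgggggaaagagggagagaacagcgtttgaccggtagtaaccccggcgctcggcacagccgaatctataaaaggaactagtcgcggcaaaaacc
Hmgcs1, Msmo1 and Fasn each held 3 CCAAT boxes, which overlap at 1 place in Fasn, and Insig1 held 1. Abca1 held none, as did 5 of the other member promoters. Among the members whose signal was higher in DN3 or DN4 than in DN2 cells by the test given below, 9 of 10 with a promoter entry held a CCAAT box, against 11 of the other 14 measured members. The GC box was in 7 of the same 10, against 13 of the other 14.

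The arrays were Affymetrix mouse 430 2.0 chips with deposited linear signals. The trimmed mean signal of an array ran from 129.8 to 234.1, arrays of a stage correlated at 0.960 to 0.974, and no 2 arrays were identical. Cd44 averaged 725 in DN2, 49.5 in DN3 and 47.1 in DN4 cells, and Il2ra (CD25) 2358, 1414 and 119.8, in the order the gates give. Signals were quantile normalized and tested as log2(signal + 5.57) with limma, and a gene is called where its p, adjusted over all 11241 genes by the Benjamini-Hochberg method, is under 0.05. Differences below are log2 ± SE, n = 4 arrays per stage, and a fold is on the same offset scale, which understates the change of dim genes. Signals of different genes depend on their probes and are not set against each other.

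In DN3 against DN2 cells, 7 of the 31 members were called higher (22.6%) and 0 lower by limma, where 4.68% of all tested genes were called higher and 6.32% lower. At an unadjusted p under 0.05 there were 14 members, among which Ebp (-0.25) and Abca1 (-0.54) were lower. The share of all genes at that unadjusted level was not counted. The 7 were Idi1, Sqle, Lss, Tm7sf2, Msmo1, Hsd17b7 and Insig1, and 5 of them encode enzymes of the squalene to cholesterol steps. The median log2 difference of the members was 0.27, beside 0.02 over all genes. In 9 members every DN3 array was above every DN2 array, and in 1 every DN3 array was below, where the shares over all genes were 8.03% and 9.28%.

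In DN4 against DN2 cells, 12 members were called higher (38.7%) and 2 lower (6.45%), where 17.8% of all genes were called higher and 16.5% lower. Pmvk, Mvd, Idi1, Fdps, Fdft1, Sqle, Lss, Msmo1, Insig1, Stard4, Fasn and Acaca were higher, while Abca1 and Scd2 were lower. The median of the 31 members was 0.31, beside 0.06 over all genes, and turned to -0.09 without between-array normalization, where the median of all genes was -0.29. The arrays of the 2 stages did not overlap in 11 members that were higher and 2 that were lower, with 17% and 15.5% of all genes. DN3 against DN2 and DN4 against DN2 share the DN2 arrays, so the 5 members called higher in both (Idi1, Sqle, Lss, Msmo1 and Insig1) are not independent repeats.

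Between DN4 and DN3 cells, 2 members were called higher (6.45%) and 1 lower (3.23%), where 7.08% of all genes were higher and 8.88% lower. These shares lie near the background or under it. The members were Ebp and Scd1, higher in DN4, and Hsd17b7, lower in DN4, and the member median was 0.06, beside 0.05 over all genes. In 1 member every DN4 array was above every DN3 array, and in 4 every one was below, where the shares over all genes were 12.5% and 11.4%. Set against the mean of DN2 and DN4 cells, DN3 cells had 1 member called higher by limma (3.23%) and 0 lower. It was Hsd17b7 (0.49 ± 0.11, adjusted p 0.0239), where 2.74% of all genes were higher and 2.11% lower. At an unadjusted p under 0.05 there were 9 members, among which Ebp (-0.33) and Scd1 (-0.63) were lower.

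**Figure D1:**
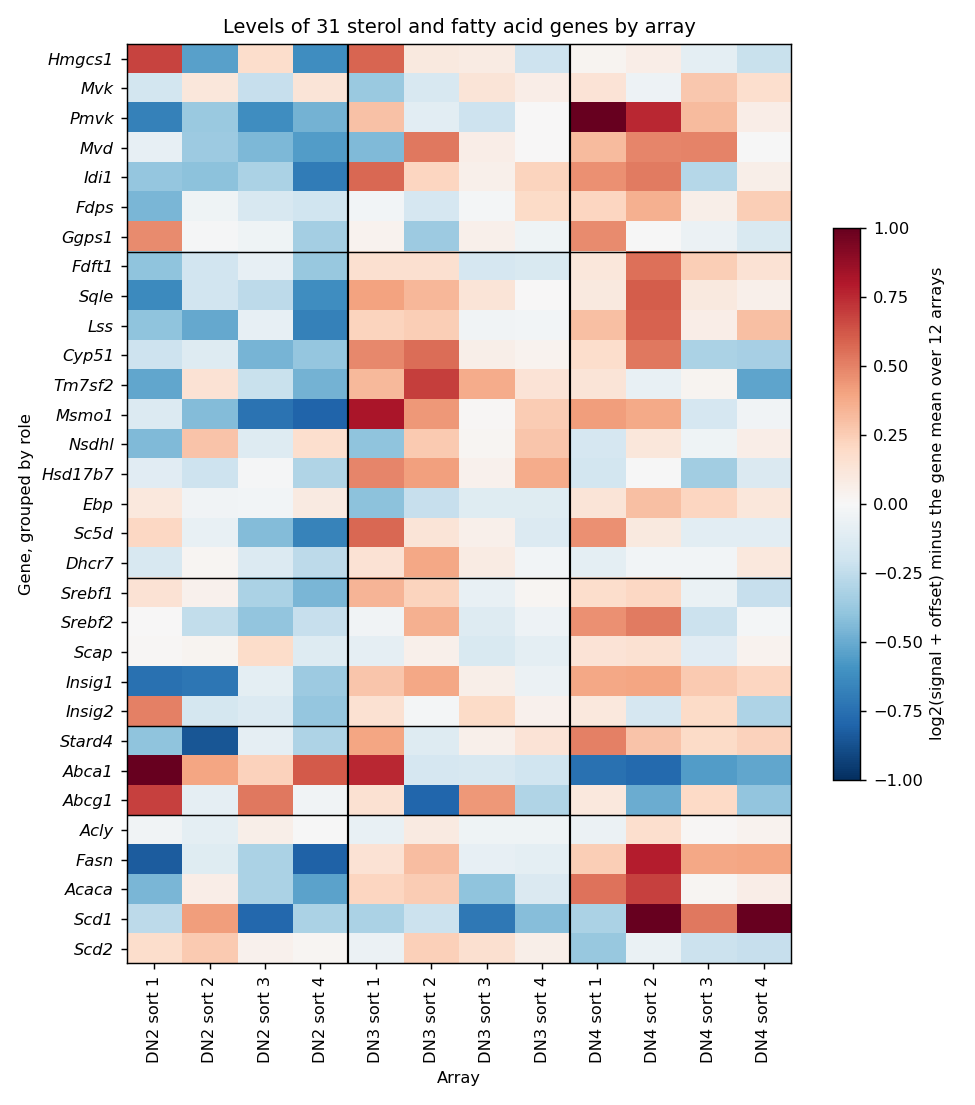
Each row is 1 of the 31 measured genes, grouped by role, and each column 1 array, by stage and sort. Colour gives log2(signal + offset) minus the gene's mean over the 12 arrays, and differences beyond 1 share the end colour. The DN2 columns are bluer in Idi1, Sqle, Lss, Msmo1, Insig1 and Fasn, whose DN3 and DN4 columns are mostly redder, and Abca1 runs the other way.

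Among the mevalonate and isoprenoid steps, 1 of 7 measured genes was called higher in DN3 against DN2 cells, 0 of 7 in DN4 against DN3 cells in either direction, and 4 of 7 in DN4 against DN2 cells. Counts by role and by list below are read against the shares of all genes above, which were 4.68% higher and 6.32% lower in DN3 against DN2, 7.08% and 8.88% in DN4 against DN3, and 17.8% and 16.5% in DN4 against DN2 cells. Pmvk, the kinase that adds the second phosphate to mevalonate, had the largest difference of the role in DN4 against DN2 cells. Its signals in sorts 1 to 4 were 105, 131, 109 and 121 in DN2 cells, 209.7, 158, 147 and 170.5 in DN3 cells and 350.3, 292, 214 and 179 in DN4 cells. Every DN4 array was above every DN2 array, DN3 arrays lay between in sorts 1 to 4, and the DN4 values spread more widely than the DN2 values. The difference of DN4 against DN2 was 1.07 ± 0.19 (adjusted p 0.00125), or 2.1-fold. DN4 against DN3 gave 0.54 ± 0.19 (adjusted p 0.0773), and the fit blocked by sort called it higher (adjusted p 0.0458).

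Idi1 isomerises isopentenyl diphosphate to the form that starts chain growth. Its signals were 1216, 1196, 1275 and 976 in DN2 cells, 2365, 1846, 1649 and 1854 in DN3 cells and 2180.1, 2282, 1304 and 1657 in DN4 cells. All DN3 and all DN4 arrays were above the highest DN2 array, and DN3 and DN4 arrays overlapped. The difference was 0.72 ± 0.18 in DN3 against DN2 cells (adjusted p 0.0253) and 0.64 ± 0.18 in DN4 against DN2 cells (adjusted p 0.0179). A second probe set of Idi1 gave 0.64 and 0.47 for the same differences.

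Mvd decarboxylates the mevalonate diphosphate to isopentenyl diphosphate. Its signals were 106, 86.4, 81.3 and 74.7 in DN2 cells, 81.5, 165, 119 and 113 in DN3 cells and 142, 161, 161 and 112 in DN4 cells. DN4 and DN2 arrays did not overlap (0.69 ± 0.20, adjusted p 0.0171), while the DN3 arrays ran from inside the DN2 range to above the DN4 range. Fdps, which makes farnesyl diphosphate, the last intermediate shared with protein prenylation, had signals of 190.3, 255, 235 and 228 in DN2 cells, 258, 233, 259 and 301 in DN3 cells and 306, 338, 274 and 313 in DN4 cells. Its DN4 arrays were all above its DN2 arrays, by 0.43 ± 0.12 (adjusted p 0.0169).

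Hmgcs1, Mvk and Ggps1 were called in no comparison. Hmgcs1, the synthase that joins acetyl-CoA to acetoacetyl-CoA, had signals of 3503, 1502, 2474 and 1425 in DN2 cells, 3283, 2348, 2323 and 1900.0 in DN3 cells and 2235, 2298, 2052 and 1879.5 in DN4 cells. Its DN2 arrays spread over the whole range of the other stages, and the difference in DN4 against DN2 cells was 0.02, with a 95% interval of -0.55 to 0.60. Its 4 other probe sets above the filter, 1 of them dim, gave 0.44 to 0.64 in DN3 against DN2 cells, above the 0.22 of the brightest. In DN4 against DN2 cells they gave 0.35, 0.53 and 0.71, and the dim one 0.04, so the value of 0.02 holds for the brightest. Mvk, the first mevalonate kinase, ran from 81.5 to 106 in DN2, 73.1 to 106 in DN3 and 92.9 to 117 in DN4 cells. Ggps1, which lengthens farnesyl to geranylgeranyl diphosphate, ran from 201 to 359, 198 to 265 and 230.0 to 358 in the same order, and its stages overlapped. In DN4 against DN2 cells this probe set of Ggps1 gave 0.04, and its others 0.48, 0.11 and 0.28. With probe sets ending in _x_at and _s_at left out, Ggps1 was called higher there (0.48, adjusted p 0.0145).

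The squalene to cholesterol steps had 5 of 11 genes called higher in DN3 against DN2 cells and 4 of 11 in DN4 against DN2 cells, with 0 lower in both (limma). Msmo1, which oxidises the methyl groups of lanosterol-derived sterols, had the largest difference of all members in DN3 against DN2 cells. Its signals were 239.6, 194, 156 and 149.7 in DN2 cells, 470.0, 359.9, 266 and 316 in DN3 cells and 356, 345, 235 and 259 in DN4 cells. Each DN3 array was above all DN2 arrays, and within every sort the DN3 array was also above the DN4 array. The difference was 0.91 ± 0.21 in DN3 against DN2 cells (adjusted p 0.0145, 1.87-fold) and 0.68 ± 0.21 in DN4 against DN2 cells (adjusted p 0.0248). The DN3 call held in 25 of 26 alternative settings and ended with sorts 1 and 2 alone. A second, dim Msmo1 probe set, above the filter level on 4 arrays, gave 0.90 in DN3 against DN2 cells but -0.54 in DN4 against DN2 cells. With the probe sets averaged the DN4 difference was 0.07 (adjusted p 0.817), so that call rests on the brightest.

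Fdft1 is squalene synthase, the first step committed to sterols. Its signals were 278, 322, 349 and 284 in DN2 cells, 415, 414, 329 and 332 in DN3 cells and 402, 546, 439.6 and 409 in DN4 cells. DN4 arrays were all above DN2 arrays (0.53 ± 0.14, adjusted p 0.0109), and DN3 arrays overlapped both. Sqle, the epoxidase that follows and a known control point of the route, had signals of 434, 593, 565 and 439 in DN2 cells, 896, 855, 741 and 677 in DN3 cells and 723, 1033, 724 and 700.4 in DN4 cells. All DN3 and DN4 arrays were above all DN2 arrays, by 0.64 ± 0.16 (adjusted p 0.0241) and 0.64 ± 0.16 (adjusted p 0.00984). The DN4 array of sort 2 stood above the other DN4 arrays.

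Lss closes squalene epoxide to lanosterol. Its signals were 122, 112, 153 and 99.5 in DN2 cells, 191, 194, 159 and 159.8 in DN3 cells and 202, 248, 171 and 202 in DN4 cells. The DN2 arrays were below all DN3 and DN4 arrays, by 0.52 ± 0.15 (adjusted p 0.0466) and 0.73 ± 0.15 (adjusted p 0.00298). A dimmer second Lss probe set gave 0.10 and 0.00 for these differences, so the Lss calls rest on 1 probe set, whose name ending marks possible matches to more than 1 transcript.

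Tm7sf2, a sterol reductase after lanosterol, had signals of 101, 163, 125 and 104 in DN2 cells, 186, 241, 192 and 162 in DN3 cells and 161, 140.0, 150.3 and 101 in DN4 cells. Its DN3 array was the highest of the 3 in every sort, although the DN2 array of sort 2 reached into the DN3 range. The difference was 0.65 ± 0.19 in DN3 against DN2 cells (adjusted p 0.0449) and -0.49 in DN4 against DN3 cells (adjusted p 0.0959, 0.0247 with the sort as a block).

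Hsd17b7, a ketoreductase of sterol demethylation, was the 1 member called at both steps. Its signals were 256, 239, 276 and 225 in DN2 cells, 392, 370.4, 287 and 361 in DN3 cells and 243, 278, 217 and 251 in DN4 cells. The DN3 arrays were above all DN2 and all DN4 arrays, by 0.49 ± 0.13 against DN2 (adjusted p 0.0272), and DN4 fell below DN3 with a difference of -0.50 ± 0.13 (adjusted p 0.0201). Its 3 other probe sets gave 0.26 to 0.30 in DN3 against DN2 cells and -0.08, 0.12 and 0.21 in DN4 against DN3 cells, so the fall at DN4 was seen in the brightest probe set and not in 2 of the others. The name of the brightest ends in _x_at. With probe sets ending in _x_at and _s_at left out, both calls ended (0.30 and -0.08, adjusted p 0.285 and 0.788). So did that against the mean of DN2 and DN4 cells (0.19, adjusted p 0.538).

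Ebp, the isomerase that moves the ring double bond, had signals of 752, 683, 685 and 742 in DN2 cells, 524, 595, 641 and 642 in DN3 cells and 763, 861, 811 and 754 in DN4 cells. Its DN3 arrays were the lowest: DN4 was above DN3 by 0.41 ± 0.10 (adjusted p 0.0199), and without between-array normalization the difference was -0.036. In DN3 against DN2 cells its value was -0.25 (adjusted p 0.148), the reverse of most genes of the role.

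Cyp51, the lanosterol demethylase, had signals of 251, 265, 209 and 221 in DN2 cells, 409, 430.0, 302 and 298 in DN3 cells and 329.7, 421, 233 and 230.5 in DN4 cells. All DN3 arrays were above all DN2 arrays without a call (0.58 ± 0.20, adjusted p 0.0913), and the sort as a block gave adjusted p 0.00591 in DN3 and 0.0366 in DN4 against DN2 cells. Cyp51 was also called in DN3 against DN2 cells with all probe sets averaged (0.60, adjusted p 0.0493). The same held without the 3 arrays of lowest signal (0.63, adjusted p 0.0391). Sc5d, a sterol desaturase, had signals of 296, 242, 188 and 159 in DN2 cells, 383, 280.4, 266 and 232 in DN3 cells and 354, 275, 238 and 237 in DN4 cells. Sc5d was higher in both later stages than in DN2 within each sort, and passed with the block (adjusted p 0.0131 and 0.0128, against 0.281 and 0.252 without it). Dhcr7, the reductase of the last step, gave 0.28 in DN3 against DN2 cells (95% interval 0.03 to 0.53, adjusted p 0.151). Nsdhl, a sterol dehydrogenase, gave 0.07 and 0.02 in DN3 and DN4 against DN2 cells, and its stages overlapped.

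**Figure D2:**
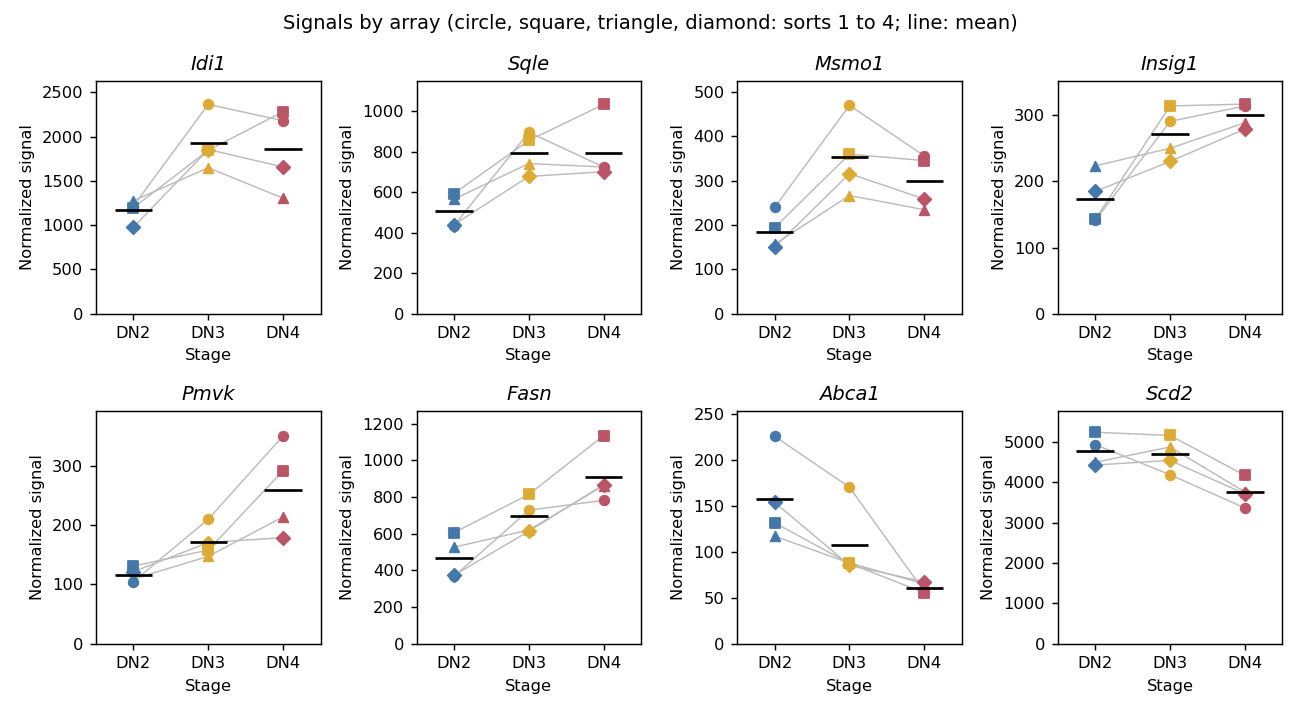
Normalized linear signal (vertical axis, from 0) of 8 genes by stage, with 1 marker shape per sort, grey lines joining the arrays of a sort and black bars at the mean of 4 arrays. Idi1, Sqle, Msmo1 and Insig1 are above their DN2 arrays at both later stages except where a DN4 array of Msmo1 overlaps them, Pmvk and Fasn are highest at DN4, and Abca1 and Scd2 are lowest at DN4.

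Of the 5 SREBP regulators, Insig1 was the 1 called, higher in DN3 and in DN4 against DN2 cells. Insig1 retains SCAP in the endoplasmic reticulum and is itself a well-known SREBP target. Its signals were 141, 143, 224 and 185 in DN2 cells, 291, 314, 250.2 and 230.3 in DN3 cells and 314, 317, 289 and 279 in DN4 cells. All DN3 and DN4 arrays were above all DN2 arrays, by 0.65 ± 0.16 (adjusted p 0.019) and 0.80 ± 0.16 (adjusted p 0.00218). With the sort and the Gapdh ratio given below in the limma fit, these differences were 0.11 (adjusted p 0.835) and 0.44 (adjusted p 0.0728).

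Insig2, its paralog with the same retaining role, had signals of 274, 168, 173 and 145 in DN2 cells, 213, 189, 218 and 197 in DN3 cells and 206, 169.7, 219 and 153 in DN4 cells. Its stages overlapped, and in DN4 against DN2 cells it gave 0.01 with a 95% interval of -0.39 to 0.40. The change of Insig1 minus that of Insig2 was 0.79 in DN4 against DN2 cells. Its two-sided exact permutation p was 0.0286, the smallest that 4 against 4 arrays allow, and 0.171 after adjustment over the 12 such tests run on 4 gene pairs, none of which passed. Within sorts 1 to 4 the value was 1.52, 1.11, 0.03 and 0.51. Over the 4 gene pairs and 3 comparisons, 6 of the 12 had the same sign in all 4 sorts, where the exact test over sign changes cannot go below p = 0.125 (adjusted 0.25).

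Scap, the escort itself, ran from 1095 to 1359 in DN2, 1079.7 to 1239 in DN3 and 1106 to 1329 in DN4 cells, and its 95% interval in DN4 against DN2 cells was -0.20 to 0.26. Srebf1 encodes the SREBP form tied most to fatty acid genes. Its signals were 863, 804, 624 and 567 in DN2 cells, 987, 910.5, 739.6 and 790.3 in DN3 cells and 882, 902, 744 and 665 in DN4 cells. The DN3 array was above the DN2 array in every sort by a small amount (0.27 ± 0.16, adjusted p 0.344, 0.0467 with the block). Srebf2, the form tied most to cholesterol genes, had signals of 169, 142, 127 and 143 in DN2 cells, 164, 218, 154 and 163 in DN3 cells and 234, 245, 145 and 167 in DN4 cells. Its DN4 array was above its DN2 array in every sort (0.40 ± 0.18, adjusted p 0.103, 0.03 with the block). The change of Srebf1 minus that of Srebf2 ran from -0.26 to 0.02 over the 3 comparisons, with exact permutation p of 0.143 to 0.829 before adjustment. Messenger RNA of these regulators does not report the cut, active protein.

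For sterol transport and LXR, 3 genes were measured, and they did not move one way. Stard4, a carrier that moves cholesterol between membranes and an SREBP target, had signals of 315, 229, 393 and 336 in DN2 cells, 552, 381, 433 and 461 in DN3 cells and 596, 510.3, 479 and 491 in DN4 cells. All DN4 arrays were above all DN2 arrays (0.72 ± 0.17, adjusted p 0.00598), and DN3 against DN2 gave 0.53 ± 0.17 (adjusted p 0.0639, 0.0296 with the block). The other bright Stard4 probe sets gave -0.02 and -0.03 in DN4 against DN2 cells, so the call rests on 1 of 3 probe sets.

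Abca1 exports cholesterol to apolipoproteins and is a standard LXR target. Its signals were 226, 132, 117 and 154 in DN2 cells, 170.3, 87.4, 87.8 and 85.3 in DN3 cells and 56.7, 55.4, 65.2 and 67.3 in DN4 cells. Every DN4 array was below every DN3 and every DN2 array, and the DN3 array of sort 1 was well above the other DN3 arrays and inside the DN2 range. Abca1 fell in DN4 against DN2 cells (-1.25 ± 0.24, adjusted p 0.00167), which was 2.37-fold lower in DN4. DN4 against DN3 gave -0.71 ± 0.24 (adjusted p 0.0612, 0.0247 with the block). DN3 against DN2 gave -0.54 ± 0.24 (adjusted p 0.179), and -0.77 (adjusted p 0.0294) without the DN3 array of sort 1. The fall in DN4 against DN2 cells held in 24 of 25 alternative settings and missed the threshold when all Abca1 probe sets were averaged (-0.51, adjusted p 0.0562). The other Abca1 probe sets in that average were dim, above the filter on 1 and 0 arrays.

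Macrophages also express Abca1, and markers of other cell types differed between the stages. Of 6 myeloid markers tested, Lyz2, Fcer1g and Ctss were lower in DN3, and Lyz2 and Fcer1g lower in DN4, against DN2 cells. The summed signal of 8 measured myeloid markers ran from 725 to 1126 in DN2, 477 to 605 in DN3 and 643 to 779 in DN4 cells, and the defining markers Itgam and Fcgr3 were above the filter on 0 arrays. Of 3 mast cell markers, the protease gene Cpa3 averaged 3228 in DN2, 143 in DN3 and 36.9 in DN4 cells, while the defining Fcer1a and Ms4a2 were above the filter on 0 arrays. The summed signal of 3 NK markers ran from 1806 to 2091 in DN2, 381 to 721 in DN3 and 67.7 to 118 in DN4 cells, most of it Nkg7 (means 1642, 549.6 and 70.1), and the defining Ncr1 was above the filter on 0 arrays. Other markers were called higher in DN4 against DN3 cells. They were dendritic Cd74 (1.11, adjusted p 0.0163), B cell Ms4a1 (1.30, adjusted p 0.027) and stromal Krt8 (1.38, adjusted p 0.0365). Ms4a1 and Krt8 were dim, above the filter level on 6 and 5 arrays. The other tested markers of these cell types were called neither higher nor lower there. Those were B cell Cd79b (-0.39) and Pax5 (-0.42), stromal Krt5 (-0.002) and Pecam1 (0.32), and dendritic H2-Aa (1.54) and H2-Ab1 (0.78). In DN4 against DN2 cells the B cell marker Cd79b and the stromal marker Pecam1 were lower (-0.59 and -0.65), and Pecam1 also in DN3 against DN2 cells (-0.97). The part of these markers in the Abca1 difference was not tested.

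Abcg1, which exports cholesterol to high-density lipoprotein and is also an LXR target, had signals of 1325, 772, 1185 and 799 in DN2 cells, 914, 472, 1111 and 666 in DN3 cells and 885, 580.5, 941 and 622 in DN4 cells. The DN3 and DN4 arrays were below the DN2 array in every sort, with sorts far apart, at -0.40 ± 0.28 (adjusted p 0.429) and -0.42 ± 0.28 (adjusted p 0.266). With the sort as a block the adjusted p were 0.0363 and 0.0138. A second Abcg1 probe set gave -0.41 and -0.06 for these differences. The change of Abca1 minus that of Abcg1 was -0.83 in DN4 against DN2 cells (exact permutation p = 0.0857, adjusted 0.245). Within sorts 1 to 4 it was -1.31, -0.76, -0.46 and -0.77.

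The 5 fatty acid synthesis genes had 2 called higher and 1 lower in DN4 against DN2 cells, and 0 called in DN3 against DN2 cells in either direction (limma). Fasn, the synthase that makes palmitate, had signals of 367, 606, 526 and 373 in DN2 cells, 728, 814, 620.1 and 613 in DN3 cells and 782, 1135, 862 and 867 in DN4 cells. DN4 was above DN2 in every sort and array (0.97 ± 0.18, adjusted p 0.00169, 1.96-fold), with DN3 between in each sort. DN3 against DN2 gave 0.59 ± 0.18 (adjusted p 0.0617, 0.012 with the block), and DN4 against DN3 0.39 ± 0.18 (adjusted p 0.174, 0.0451 with the block).

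Acaca makes malonyl-CoA, the substrate of Fasn. Its signals were 245, 355, 272 and 233 in DN2 cells, 395, 407, 256 and 308 in DN3 cells and 498, 551, 344 and 357 in DN4 cells. DN4 was above DN2 within every sort, though the lowest DN4 array lay inside the DN2 range (0.64 ± 0.20, adjusted p 0.0296). Acly, which frees acetyl-CoA from citrate for both routes, ran from 2469.6 to 2751 in DN2, 2505 to 2804 in DN3 and 2536 to 2967 in DN4 cells. Its DN4 against DN2 interval was -0.15 to 0.26 in the brightest probe set, while the 3 others gave 0.34 to 0.60.

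Scd1 and Scd2 encode desaturases that put a double bond into fatty acids. Scd2 signals were 4935, 5241, 4497 and 4428 in DN2 cells, 4188, 5161, 4875 and 4544 in DN3 cells and 3363, 4171, 3759 and 3713 in DN4 cells. All DN4 arrays were below all DN3 and DN2 arrays, with differences of -0.35 ± 0.11 against DN2 (adjusted p 0.0301) and -0.32 against DN3 (adjusted p 0.0705, 0.0189 with the block). Scd1 was dim, above the filter level on 9 of 12 arrays, with signals of 22.1, 38.7, 13.6 and 21.0 in DN2 cells, 20.9, 22.8, 14.6 and 19.0 in DN3 cells and 21.0, 76.8, 42.2 and 64.7 in DN4 cells. Its DN4 arrays of sorts 2, 3 and 4 were high, and that of sort 1 was level with DN2 and DN3. The Scd1 difference was 1.07 ± 0.33 in DN4 against DN3 cells (adjusted p 0.0454) and 0.89 ± 0.33 in DN4 against DN2 cells (adjusted p 0.0546, 0.0219 with the block). The change of Scd1 minus that of Scd2 was 1.40 in DN4 against DN3 cells (exact permutation p = 0.0286, adjusted 0.171), with 0.32, 1.84, 1.62 and 1.80 within sorts 1 to 4. In DN4 against DN2 cells it was 1.24 (exact permutation p = 0.0571, adjusted 0.229).

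**Figure D3:**
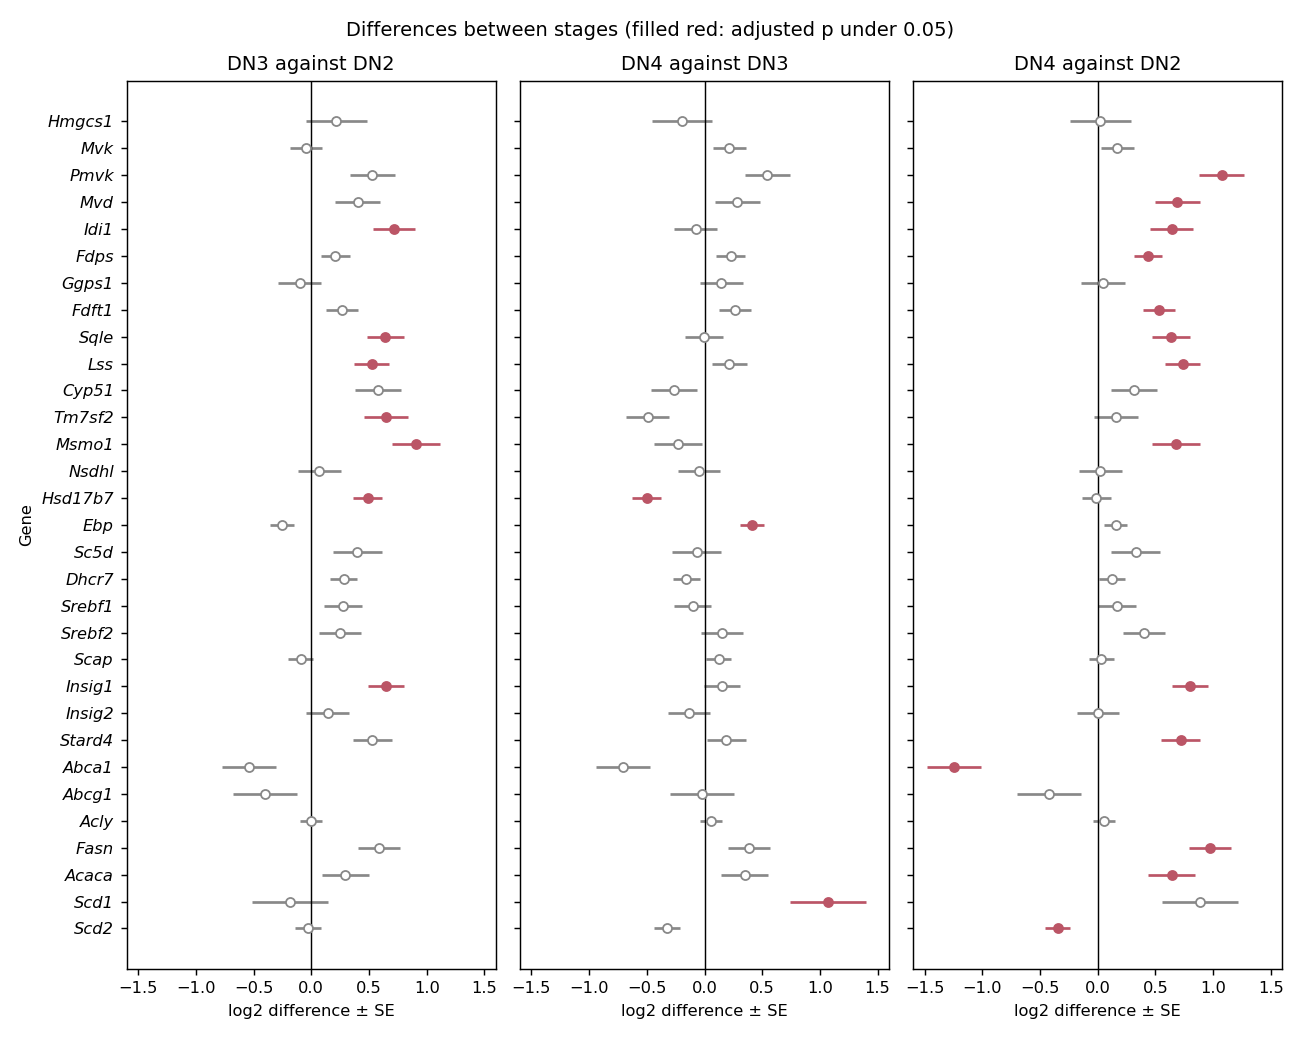
Log2 difference ± SE (horizontal axis) of the 31 measured genes in DN3 against DN2, DN4 against DN3 and DN4 against DN2 cells, n = 4 arrays per stage, with called genes in filled red. Called genes number 7, 3 and 14, and in the panel of DN4 against DN2 cells Abca1 and Scd2 are the called genes left of 0.

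Multiple probe sets were above the filter for 19 members. The brightest was used, and of 73 member probe sets 64 were above the filter. Probe sets that differ are given above for Hmgcs1, Ggps1, Lss, Msmo1, Hsd17b7, Stard4, Abcg1 and Acly, and these are not all. In DN4 against DN2 cells a second Fdft1 probe set gave 0.88, where the brightest gave 0.53. The dimmer Scd2 probe sets gave -0.06 and -0.24 there, where the brightest gave -0.35. Without probe sets ending in _x_at and _s_at, Fdft1 was also called higher in DN4 against DN3 cells (0.57, adjusted p 0.0293). Averaging all probe sets of a gene left 9 members called in DN4 against DN2 cells, all higher, and ended the calls of Fdps, Lss, Msmo1, Stard4, Abca1, Acaca and Scd2, while Srebf2 and Scd1 gained one. The Acaca value was then 0.47 (adjusted p 0.0627), the Fdps value 0.27 (adjusted p 0.23) and the Scd2 value -0.22 (adjusted p 0.201). These averages took in dim probe sets too, such as the second of Fdps, above the filter on 0 arrays.

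**Figure D4:**
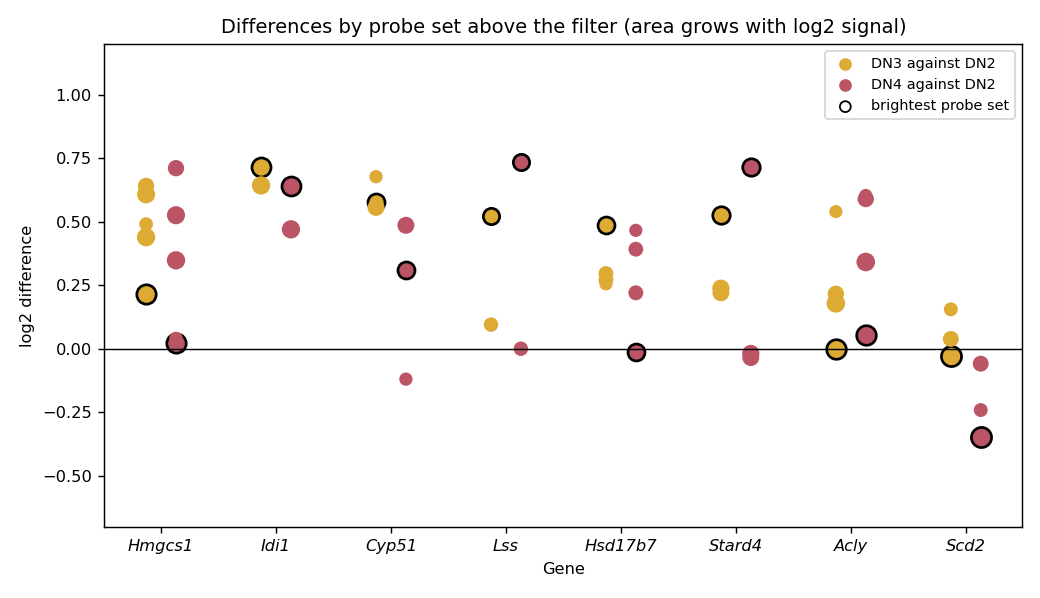
Log2 difference (vertical axis) of every probe set above the filter for 8 genes, in DN3 against DN2 and in DN4 against DN2 cells, with marker area growing with mean signal and a black ring on the brightest. Probe sets of Idi1 lie close together, while those of Lss and Stard4 differ in DN4 against DN2 cells, from 0.00 to 0.73 and from -0.03 to 0.72.

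Genes around the route were taken from 5 lists by function. Of 6 tested genes of SREBP processing and sterol-regulated degradation, 1 was higher and 1 lower in DN3 against DN2 cells. Mbtps1, the protease that makes the first cut in SREBP, was higher (0.51 ± 0.14, adjusted p 0.0309), and Pgrmc1, a sterol-linked heme protein, was lower (-0.40 ± 0.12, adjusted p 0.0443). In DN4 against DN2 cells Mbtps1 was higher (0.38), and Erlin2, of the degradation machinery, and Pgrmc1 were lower (-0.47 and -0.33).

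Of 11 other SREBP targets, 3 were higher and 3 lower in DN4 against DN2 cells, beside the same 17.8% and 16.5%. The higher ones were Acsl3, which activates fatty acids (1.46 ± 0.23, adjusted p 0.000473), Tmem97, an endoplasmic reticulum sterol protein (1.13 ± 0.17, adjusted p 0.000284), and Aacs, which activates acetoacetate (0.77). The lower ones were the elongase Elovl6 (-1.14 ± 0.23, adjusted p 0.00232), the desaturase Fads2 (-1.07) and the acetyl-CoA synthetase Acss2 (-0.73). In DN3 against DN2 cells Acsl3 was higher (1.09, adjusted p 0.00862) and Elovl6 lower (-0.80, adjusted p 0.0426), and Tmem97 was higher in DN4 against DN3 cells (0.67, adjusted p 0.0181).

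The isoprenoid branch, which uses farnesyl and geranylgeranyl diphosphate to anchor proteins and to make dolichol and ubiquinone, had 11 tested genes, with 5 higher and 0 lower in DN4 against DN2 cells (limma), where 17.8% of all genes were higher and 16.5% lower. They were Rabggta and Rabggtb, subunits of the enzyme that prenylates Rab proteins (0.65 and 0.80), Nus1 of dolichol synthesis (0.57), Pdss2 of ubiquinone synthesis (0.60) and the CAAX protease Rce1 (0.43), with adjusted p from 0.00154 to 0.0212. Nus1 and Rabggta were higher in DN3 against DN2 cells too (0.57 and 0.55, adjusted p 0.00481 and 0.0279), and Rce1 in DN4 against DN3 cells (0.47, adjusted p 0.0264).

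Of 6 genes of sterol esterification and transport, 1 was higher and 2 lower in DN4 against DN2 cells: the lipoprotein receptor Scarb1 (0.32), the sterol-binding Osbpl9 (-0.80) and the lysosomal carrier Npc2 (-0.32). The last list had 4 tested genes, which were LXR partners or targets and Abca7, a transporter related to Abca1. Abca7 was lower at both steps, with differences of -0.85 ± 0.16 in DN3 against DN2 cells (adjusted p 0.00444) and -0.72 ± 0.16 in DN4 against DN3 cells (adjusted p 0.0103). Rxra, the shared partner receptor of LXR, was higher in DN4 against DN2 cells (1.27 ± 0.40, adjusted p 0.0263). It was dim in DN2 cells, with a mean log2 level of 4.92, near the filter level of 4.68.

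Proliferation genes also differed between stages, and a Gapdh ratio linked to RNA quality varied between arrays, with ranges that overlapped between stages. The summed signal of 7 proliferation genes ran from 22978 to 25972 in DN2, 22932 to 25943 in DN3 and 28553 to 29649 in DN4 cells. Of the 7, 0 were called in DN3 against DN2 cells by limma, 2 were higher in DN4 against DN3 cells (Mki67 and Cdk1), and 4 were higher in DN4 against DN2 cells (Top2a, Aurka, Cdk1 and Birc5). Their part in the members' differences was not tested. The Gapdh control probe set at the 3′ end was brighter than that at the 5′ end, a gap that grows as RNA is shortened, by a log2 value of 1.10 to 1.82 on DN2, 0.876 to 1.26 on DN3 and 1.02 to 1.46 on DN4 arrays. With this ratio and the sort in the fit, 1 of the 7 calls in DN3 against DN2 cells was left, Msmo1, and 9 members were called in DN4 against DN2 cells, 8 higher and 1 lower. Of all genes, 1.4% were then called higher and 2.14% lower in DN3 against DN2 cells, and 16.4% and 15% in DN4 against DN2 cells. The member medians in this fit were 0.25 and 0.34. For the calls that ended in DN3 against DN2 cells it gave 0.69 for Idi1, 0.64 for Tm7sf2, 0.47 for Sqle, 0.41 for Hsd17b7, 0.36 for Lss and 0.11 for Insig1 (adjusted p 0.228 to 0.835).

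The calls of DN3 against DN2 cells were near the threshold, and leaving out 1 array ended several. Arrays named here were each left out alone. The count was 3 without the DN2 array of sort 1, 2 without DN2 sort 4, DN3 sort 1 or DN3 sort 2, and 4 without DN3 sort 4. Of all genes, 3.37% to 3.92% were called higher in these fits and 4.96% to 5.43% lower. With all 12 arrays these shares were 4.68% and 6.32%. The Idi1 call ended without DN2 sort 4 or DN3 sort 1 or 4 (adjusted p 0.0521 to 0.0757). That of Sqle ended without DN2 sort 1 or 4 or DN3 sort 1 or 2 (adjusted p 0.0643 to 0.0708), and that of Insig1 without DN2 sort 1 or 2 or DN3 sort 1 or 2 (adjusted p 0.0533 to 0.0576). The Hsd17b7 call ended without DN2 sort 2 or 4 or DN3 sort 1, 2 or 4 (adjusted p 0.0618 to 0.0786). The Lss call ended without DN2 sort 1, 2 or 4, DN3 sort 1, 2, 3 or 4 or DN4 sort 1 or 4 (adjusted p 0.057 to 0.117), and the Tm7sf2 call without DN2 sort 1, 3 or 4, DN3 sort 1, 2 or 3 or DN4 sort 2 or 3 (adjusted p 0.0548 to 0.121). The Msmo1 call held with each of the 12 arrays left out in turn. Calls also appeared in this comparison: Stard4 without DN2 sort 3 (0.64, adjusted p 0.0363), Fasn without DN2 sort 2 (0.72, adjusted p 0.0268) and, lower, Abca1 as given above.

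In DN4 against DN3 cells the count was 0 without DN3 sort 1 or DN3 sort 2, by limma as before, and 1 without DN4 sort 2 or DN4 sort 3. Of all genes, 3.78% to 5.64% were then called higher and 6.25% to 8.69% lower, beside 7.08% and 8.88% with all 12 arrays. Hsd17b7 ended without DN3 sort 1 or 2 or DN4 sort 3 (adjusted p 0.0512 to 0.0581). Ebp ended without DN3 sort 1 or 2 or DN4 sort 2 (adjusted p 0.0514 to 0.0549), and Scd1 without DN2 sort 1 or 4, DN3 sort 1, 2, 3 or 4 or DN4 sort 2, 3 or 4 (adjusted p 0.0547 to 0.115). In DN4 against DN2 cells the Idi1 call ended without DN4 sort 1 or 2 (adjusted p 0.0508 to 0.0525), and the Msmo1 call without DN2 sort 3 or 4 or DN4 sort 1 or 2 (adjusted p 0.0645 to 0.0668). The Acaca call ended without DN2 sort 1, 3 or 4 or DN4 sort 1 or 2 (adjusted p 0.0556 to 0.0822), and the Scd2 call without DN2 sort 1 or 2 or DN4 sort 1, 3 or 4 (adjusted p 0.0541 to 0.0803). The 10 other calls of that comparison held with each of the 12 arrays left out in turn. The Hsd17b7 call in DN3 against the mean of DN2 and DN4 cells ended without DN3 sort 1, 2 or 4 (adjusted p 0.0659 to 0.0899). Calls that appeared were Pmvk (0.70, adjusted p 0.0294, without DN4 sort 4) and Abca1 (-0.71, adjusted p 0.0366, without DN2 sort 1) in DN4 against DN3 cells. In DN4 against DN2 cells they were Srebf2 (0.54, adjusted p 0.0337, without DN4 sort 3) and Scd1 (1.11 and 1.22, adjusted p 0.0252 and 0.00607, without DN2 sort 2 or DN4 sort 1), and against the mean of both stages Tm7sf2 (0.64, adjusted p 0.0353, without DN2 sort 2).

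The sort as a block, which takes out what arrays of shared mice have in common, raised the counts to 12 higher and 1 lower in DN3 against DN2 cells, beside 9.67% and 10.7% of all genes. They were 4 and 4 in DN4 against DN3 cells, beside 15.2% and 14.7%, and 16 and 3 in DN4 against DN2 cells, beside 24.7% and 21.8%. Set against the mean of both other stages, DN3 cells had 4 higher (Cyp51, Tm7sf2, Msmo1 and Hsd17b7) and 1 lower (Ebp), beside 6.3% and 5.83%. Without between-array normalization the split was 2 higher and 0 lower in DN3 against DN2, 0 and 8 in DN4 against DN3, and 1 and 1 in DN4 against DN2 cells. Of all genes, 2.62% were then higher and 2.78% lower in DN3 against DN2, 0.357% and 25.3% in DN4 against DN3, and 2.56% and 24.5% in DN4 against DN2 cells, so the 8 lower members stand at the share of all genes. The median of all genes was then 0.13, -0.41 and -0.29 in these comparisons. Relative to these medians the member median was 0.27, 0.01 and 0.20 (0.25, 0.01 and 0.25 with quantile normalization). With arrays centred on their median in place of both, DN4 against DN3 cells had 1 higher and 3 lower, and the member median there was -0.01.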

How the data were processed

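RNA of sorted DN2, DN3 and DN4 thymocytes was amplified in 2 cDNA cycles and measured on Affymetrix arrays, and the deposited values are linear intensity signals per probe set made with GCOS, per the labels' protocols; the sources used here name no algorithm, version or target scaling, and the signals had no common scale (array medians 15.2 to 28.1). From these, 45101 probe sets, 64 of them controls, were quantile normalized, 5.57 (the 25th percentile of the table) was added and log2 taken. The controls were left out when probe sets were assigned to genes. Gene symbols came from the platform annotation, updated through Entrez IDs for 34741 probe sets; 34945 probe sets had 1 symbol and 932 several, which were left out. Each gene took its brightest probe set, kept where the signal was above 20.1 on at least 4 arrays. The comparisons were fitted in limma 3.58.1 (R 4.3.3) over all 12 arrays without a block, with Benjamini-Hochberg adjustment over 11241 genes. Per the labels, arrays with the same number share a cell source. After stage means were removed, the 12 pairs of arrays from 1 sort had correlations of 0.246 to 0.336, and the 36 pairs across sorts -0.237 to 0.106, so the numbers pair the samples. The number of arrays limits the precision. Genes named are the members, and genes of the other lists that were called. The members and lists were chosen with earlier results of these data known. The fit was tested on simulated data, and no outcome of that is given here. Alternatives changed normalization, offset, filter, probe set rule, variance settings, arrays and block. Promoters were read from RefSeq (GRCm38.p6); 7 members had no entry.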

Additional observations from a re-analysis of the deposited data

Results flagged for a closer look

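In 93 groups of 4 arrays (31 genes at 3 stages), 2 held an array far from the other 3 by Dixon's test, where chance gives about 1 in 20. Sqle in DN4 cells had a log2 level of 10.02 in sort 2, above 9.46 to 9.51 in the other sorts. Abca1 in DN3 cells had 7.46 in sort 1, above 6.51 to 6.54 in the other sorts.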

How the results depend on the processing

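Of 3177 differences of single genes recomputed under alternatives, 2919 kept direction and side of the threshold, 187 lost a call, 70 gained one and 1 reversed (Ebp in DN4 against DN3 cells, -0.036 without between-array normalization). Counts of called members moved over 1.5 times as follows, and unless said otherwise the cause was not tested. In DN3 against DN2 cells (7) the count was 13 with the replicate block, 2 without normalization, 2 without the filter, 1 with the block and the Gapdh ratio, 1 with sorts 1 and 2, 1 with sorts 3 and 4, 4 from the 8 arrays compared, and 2 to 7 leaving out 1 array. In DN4 against DN3 cells (3) it was 8 with the replicate block, 8 without normalization, 0 without the filter, 5 with trended robust variances, 0 with sorts 1 and 2 and 0 with sorts 3 and 4, 1 without the 3 arrays of lowest signal (an alternative chosen after seeing the data), and 0 to 3 leaving out 1 array. In DN4 against DN2 cells (14) it was 2 without normalization, 9 with probe sets averaged, 9 with the block and the Gapdh ratio, 7 with sorts 1 and 2, 5 with sorts 3 and 4, 5 without the 3 arrays of lowest signal, and 11 to 14 leaving out 1 array. In DN3 against the mean of DN2 and DN4 cells (1) it was 5 with the replicate block, 3 with arrays centred, 3 without normalization, 0 without the filter, 3 with the 75th percentile filter, 0 without probe sets ending in _x_at and _s_at, 3 with trended robust variances, 0 with the block and the Gapdh ratio, 0 with sorts 1 and 2, 0 with sorts 3 and 4, and 0 to 2 leaving out 1 array. Settings with fewer sorts or without the filter test fewer arrays or more genes by construction. In DN4 against DN2 cells the shares were 9.94% and 11.3% with sorts 1 and 2, and 12.3% and 12% with sorts 3 and 4. They were 10.4% and 11.6% without the 3 arrays of lowest signal, and 17.7% and 14.7% with probe sets averaged. The replicate block ended no call of the 4 comparisons.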
